A study of Mus musculus with 16 samples.

Results

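Exocrine pancreas transcripts were followed through RNA-seq libraries of mouse intestine. The set holds 31 genes of the acinar cell, chosen by symbol: digestive enzymes and their zymogens, proteins of the secretory granule, and transcription factors. Each symbol was matched to its Ensembl identifier in the deposited count table, and all 31 were found among its 55359 genes. The questions were which share of each library these genes take, and which of them leave the common ratio when mutant and control mice are compared.

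The acinar cell of the pancreas makes, stores and releases the enzymes that digest protein, fat, starch and nucleic acid. The proteases and phospholipase A2 are stored in granules as inactive precursors and are activated in the lumen of the duodenum. A small set of transcription factors, among them Ptf1a with its partner Rbpjl, Nr5a2 and Bhlha15 (Mist1), drives these genes together, so that their messages usually keep fixed proportions to each other. The intestine itself transcribes few of them, and the pancreas lies along the duodenum.

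Duodenum and ileum were taken from adult male C57BL/6N mice on a high fat diet, at 5 weeks after tamoxifen. The mutant group, Neurog3f/f; Villin-CreERT2, had 4 mice (here M136, M167, M168 and M177). The control group, Neurog3f/f, carried the same floxed alleles without the recombinase and had 4 mice (here C133, C134, C151 and C154, each letter followed by the mouse's number). Villin-CreERT2 is a tamoxifen-dependent recombinase driven by a promoter of the intestinal epithelium, and Neurog3 is the factor that starts the enteroendocrine lineage. The same 8 numbers label a duodenal and an ileal library, which gives 16 libraries of stranded, ribosome-depleted total RNA. Below, values of single libraries are listed in the order of the mice just given.

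The libraries held 40.9 to 67.2 M counts. Neurog3 had 1 count over the 4 mutant duodenal libraries, against 549 counts over the 4 control ones, and 1 count in mutant ileum, against 201 counts in control ileum. Levels are given as CPM (counts per 1000000 counts of the library, after scaling each library by the trimmed mean of M values). A marker list of duodenal epithelium summed to between 7307 and 21857 CPM in mutant duodenum and between 22183 and 31148 CPM in control duodenum, and was at most 4592 CPM in any ileal library, so that the tissue labels fit their markers. In bulk RNA, fewer cells of a type and less RNA per cell cannot be told apart, and neither can expression in the intestine and carry-over of another tissue.

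The promoters shown here were searched for elements through which the acinar factors are known to act. The PTF1 complex, which holds Ptf1a and Rbpjl, binds an E-box next to a TC-box. The letters searched were CACCTG for the E-box, TTTCCC for the TC-box and CAAGGTCA for the Nr5a2 site, on both strands, in windows of 250 bases before to 50 bases after each start site (RefSeq, GRCm38.p6). The printed stretches are the 250 bases before the start, 5′ to 3′ on the gene's own strand, with matches to any of the 3 motifs in capitals. Cela1, an elastase, lies on the minus strand at chr15:100687921-100688170, and Cel, the bile-salt-activated lipase, on the minus strand at chr2:28563404-28563653. Ctrb1, chymotrypsinogen B, lies on the minus strand at chr8:111691011-111691260, and Cpa1, a carboxypeptidase, on the plus strand at chr6:30638968-30639217. Azgp1, at chr5:137981271-137981520 on the plus strand, encodes zinc-alpha-2-glycoprotein and is shown because, of the 31 genes, it departs most from the others once control mice C134 and C154 are left out. Cela1, Cel and Azgp1 were added to the printed set after their values were seen.
Cela1: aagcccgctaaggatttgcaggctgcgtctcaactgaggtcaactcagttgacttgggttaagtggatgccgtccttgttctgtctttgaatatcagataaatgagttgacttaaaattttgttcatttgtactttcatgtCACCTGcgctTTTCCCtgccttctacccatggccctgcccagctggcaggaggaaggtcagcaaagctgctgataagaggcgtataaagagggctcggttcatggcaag
Cel: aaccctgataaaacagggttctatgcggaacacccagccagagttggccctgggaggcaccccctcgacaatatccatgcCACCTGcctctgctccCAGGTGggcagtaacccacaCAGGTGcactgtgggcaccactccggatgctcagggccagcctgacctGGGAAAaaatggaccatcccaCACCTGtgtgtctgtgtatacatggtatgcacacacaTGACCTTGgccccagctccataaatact
Ctrb1: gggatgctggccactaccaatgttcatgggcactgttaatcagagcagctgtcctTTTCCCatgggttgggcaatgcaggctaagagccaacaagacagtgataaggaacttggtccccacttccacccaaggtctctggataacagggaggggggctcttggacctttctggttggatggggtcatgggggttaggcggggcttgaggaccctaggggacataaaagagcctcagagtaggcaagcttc
Cpa1: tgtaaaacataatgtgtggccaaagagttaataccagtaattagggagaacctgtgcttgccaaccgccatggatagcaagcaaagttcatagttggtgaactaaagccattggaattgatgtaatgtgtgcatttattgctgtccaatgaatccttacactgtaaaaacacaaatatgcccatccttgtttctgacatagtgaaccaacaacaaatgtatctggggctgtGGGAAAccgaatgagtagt
Azgp1: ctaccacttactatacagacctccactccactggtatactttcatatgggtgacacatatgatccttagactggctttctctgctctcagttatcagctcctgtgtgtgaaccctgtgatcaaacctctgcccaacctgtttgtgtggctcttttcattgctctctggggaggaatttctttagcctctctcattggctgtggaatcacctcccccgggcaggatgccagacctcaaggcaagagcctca

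In the Cela1 window the E-box starts at base -109 and the TC-box at base -99 from the start site, both on the gene's strand. The Cel window held 4 E-boxes, a TC-box and the single match to the Nr5a2 site among the members, at base -28. Ctrb1 and Cpa1 had a TC-box and no E-box of these letters in the window, and Azgp1 had no match to any of the 3. Of the 31 genes, 27 had a window, 28 windows in all because Nr5a2 has a pair of start sites. An E-box was present in 17 of the 28 windows, against 20.2% of all 32851 windows in the table. A TC-box was present in 10 of 28, against 25.2%, and the Nr5a2 site in 1 of 28, against 1.56%. Both an E-box and a TC-box lay somewhere in the window, at any spacing and on either strand, in 7 of 28, against 4.86%. These are not counts of adjacent pairs. The boxes start at bases -132 and 37 in Amy2b and at -218 and -84 in Cela2a. These matches describe letters in the windows and are not binding data.

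The set took a share of the counts that differed widely between mice in the duodenum. It made up 0.909, 18.1, 4.23 and 17.9% of all counts in mutant duodenum, against 3.06, 0.0203, 2.08 and 0.0217% in control duodenum. The mutant libraries averaged 10.3% ± 9.02 and the control libraries 1.29% ± 1.52 (SD, n = 4 each). The mutant libraries of mice M167 and M177 were the highest, the control libraries of mice C134 and C154 the lowest, and the groups overlapped because mutant mouse M136 lay below control mice C133 and C151. In ileum the set made up 0.0705, 0.479, 0.352 and 0.288% of counts in mutant mice, against 0.225, 0.0553, 0.191 and 0.0460% in control mice. The ileal means were 0.297% ± 0.171 in mutant mice and 0.129% ± 0.0920 in control mice (SD, n = 4 each), and the groups again overlapped through mouse M136.

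**Figure D1:**
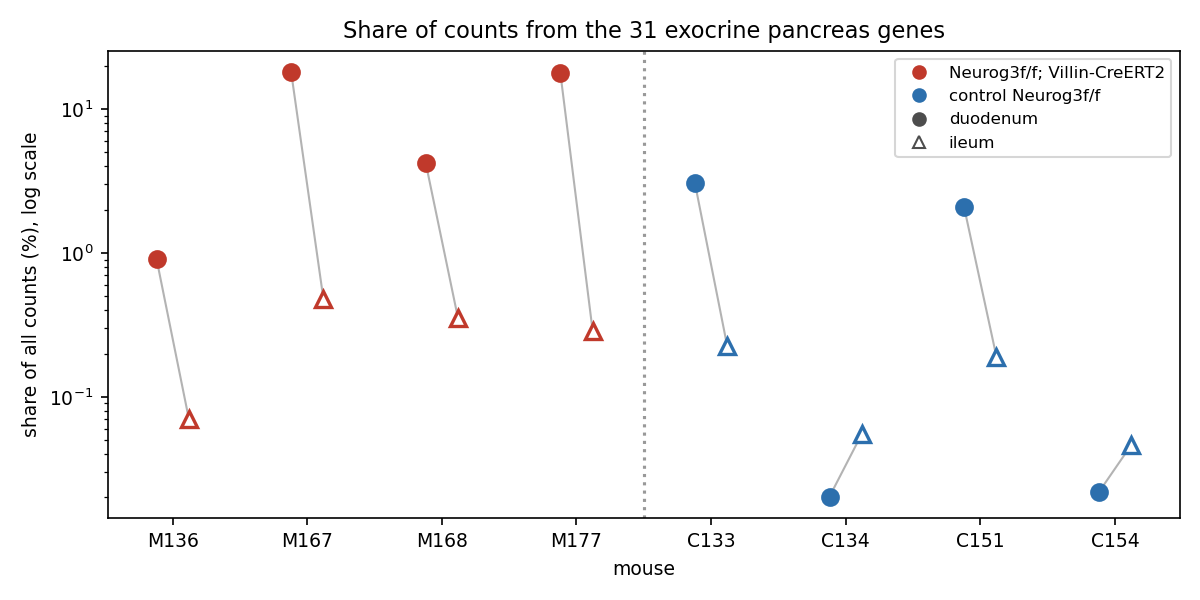
Share of all counts (%, log axis) that fell on the 31 exocrine genes, by mouse, mutant mice left and control mice right. Filled circles are duodenum, open triangles ileum, and a line joins the 2 tissues of a mouse. The duodenal share runs from 0.0203% in control mouse C134 to 18.1% in mutant mouse M167, and the ileal share lies below the duodenal one in all mice but control mice C134 and C154.

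The composition of that share was not the same in all mice. In 6 of the 8 mice, enzyme messages led by Ctrb1 and Pnlip made up the duodenal share. In control mice C134 and C154, Clps, Pnliprp2 and Nr5a2 made up 80.3 and 81.2% of the member counts in duodenum, and 93.2 and 92.7% in ileum. The summed counts of 11 reference enzymes (the 12 named below without Clps) were 290 and 156 in the duodenum of these mice, against between 392602 and 7553329 in the other 6 duodenal libraries. Values in mice C134 and C154 therefore show each gene's level where acinar enzyme messages were nearly missing.

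**Figure D2:**
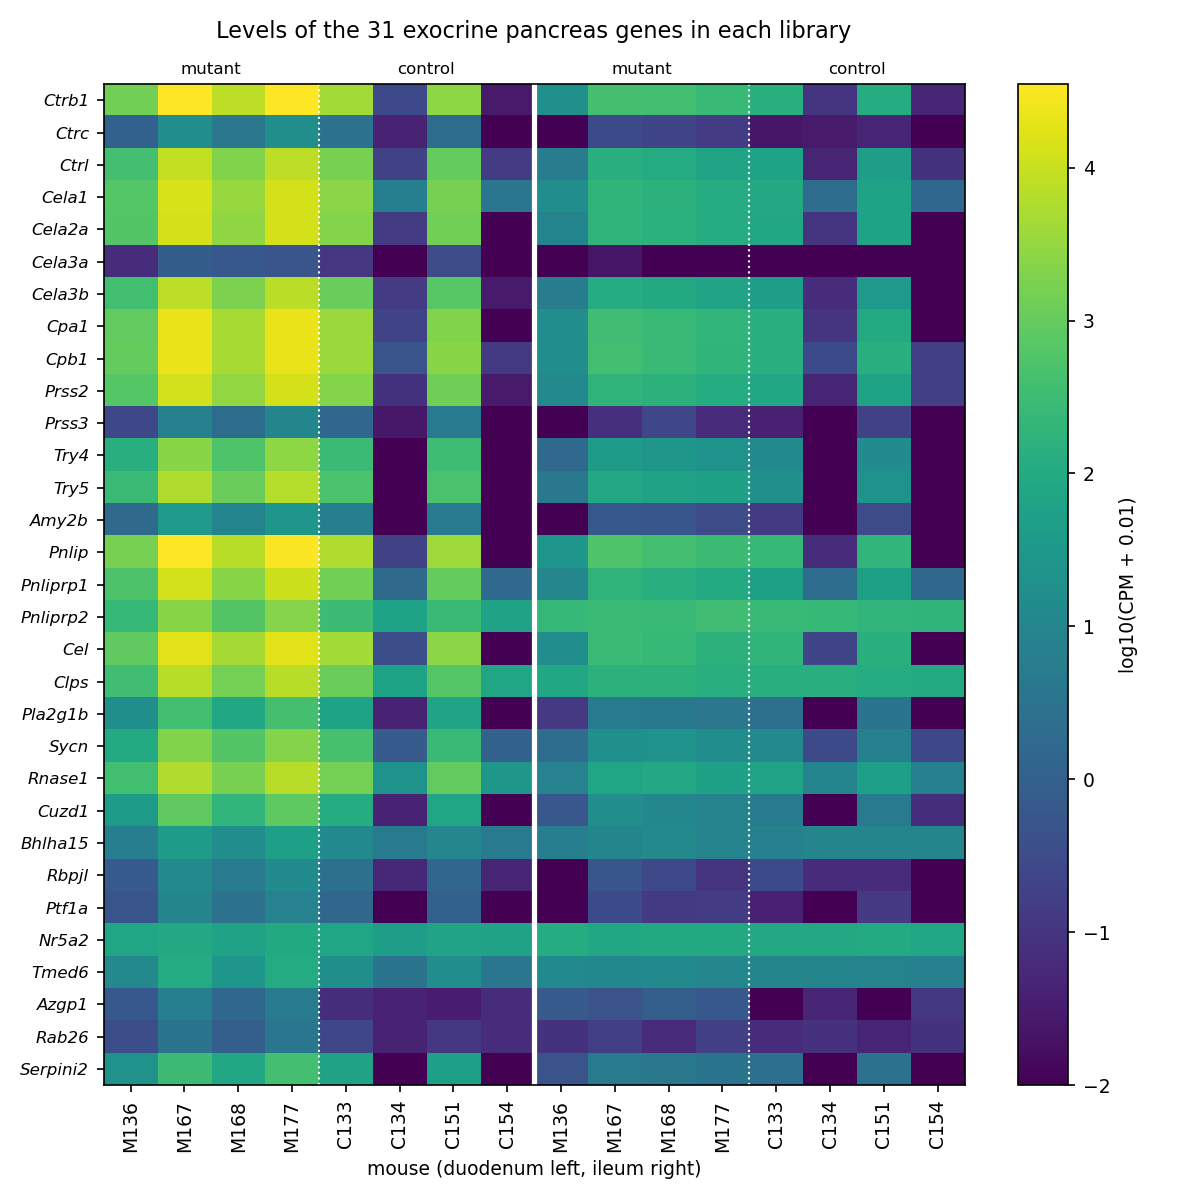
Levels of the 31 genes as log10(CPM + 0.01), genes down the page and the 16 libraries across, duodenum left of the thick line and ileum right of it, mutant left of control in each tissue. Most rows follow 1 pattern, bright in mutant mice M167 and M177 and dark in control mice C134 and C154, while Pnliprp2, Clps, Nr5a2 and Bhlha15 keep a middle to high level in all libraries and Azgp1 is brighter in mutant than in control libraries of both tissues.

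Chymotrypsinogens cut proteins after aromatic residues once trypsin has activated them. Ctrb1, the most abundant member per kilobase of exon, had 1387, 35170.0, 7639 and 35135 CPM in mutant duodenum, against 4238, 0.2701, 2698 and 0.0197 CPM in control duodenum. It had 19.3, 409.5, 365 and 277 CPM in mutant ileum, against 144, 0.0953, 112 and 0.0415 CPM in control ileum. The counts behind the lowest values were 17 and 1 in duodenum and 5 and 2 in ileum, for controls C134 and C154. Of the mutant duodenal libraries, 3 stood above every control library and mouse M136 did not. Ctrl, chymotrypsin-like protease, had 383, 8790.4, 1973 and 8044 CPM in mutant duodenum, against 1636, 0.191, 989 and 0.138 CPM in control duodenum. In ileum Ctrl had 5.54, 124, 105 and 68.4 CPM in mutant ileum, against 64.02, 0.0381, 47.3 and 0.0829 CPM in control ileum. Ctrc, chymotrypsin C, which trims and degrades other zymogens, was far lower, with 1.05, 15.9, 3.88 and 17.5 CPM in mutant duodenum, against 2.94, 0.0318, 2.01 and 0 CPM in control duodenum. The ileal values were 0, 0.294, 0.227 and 0.125 CPM in mutant ileum, against 0.0146, 0.0191, 0.03797 and 0 CPM in control ileum. For all 3 genes mice C134 and C154 were lowest or tied for lowest in duodenum.

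Pancreatic elastases cut after small residues. Cela1 had 655, 14159, 3502 and 12969 CPM in mutant duodenum, against 2521, 6.69, 1583 and 3.73 CPM in control duodenum. In the ileal libraries it had 16.1, 193, 164 and 114 CPM in mutant ileum, against 89.7, 2.12, 63.1 and 1.64 CPM in control ileum. Unlike Ctrb1, it kept a low level in the control mice that lacked acinar enzymes. Cela2a had 623, 13444, 2951 and 13556 CPM in mutant duodenum, against 2148, 0.127, 1431 and 0 CPM in control duodenum. Ileum gave 8.81, 176.99, 149 and 116 CPM in mutant ileum, against 82.96, 0.0953, 63.3 and 0 CPM in control ileum. Cela3b had 357, 7742, 1801 and 7443 CPM in mutant duodenum, against 1131, 0.127, 705 and 0.0197 CPM in control duodenum. Ileal libraries held 5.504, 116, 92.7 and 65.3 CPM in mutant ileum, against 45.9, 0.0572, 34.04 and 0 CPM in control ileum. Cela3a, whose longest coding transcript is 90.4% identical to that of Cela3b, had 0.0597, 0.826, 0.626 and 0.526 CPM in mutant duodenum, against 0.1001, 0, 0.315 and 0 CPM in control duodenum, and 1 count in all ileal libraries together. Cela3b kept the mouse order of Ctrb1 in both tissues, and so did Cela2a, except that mice M167 and M177 changed places in duodenum.

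Trypsinogens are activated by enteropeptidase and then activate the other zymogens. Prss2, anionic trypsinogen, had 679, 12416, 2969.5 and 12982 CPM in mutant duodenum, against 2140.2, 0.0794, 1322 and 0.0197 CPM in control duodenum. In ileum Prss2 had 11.9, 180.3, 156 and 111 CPM in mutant ileum, against 83.6, 0.0381, 61.8 and 0.166 CPM in control ileum. Try5 had 287, 5739, 1112 and 6518 CPM in mutant duodenum, against 483, 0, 474 and 0 CPM in control duodenum. In ileum this gene had 4.26, 87.3, 58.6 and 56.1 CPM in mutant ileum, against 19.4, 0, 23.03 and 0 CPM in control ileum. Neither Try5 nor Try4 had any count in mice C134 and C154. Try4 had 127, 2392, 563 and 2671 CPM in mutant duodenum, against 297, 0, 317 and 0 CPM in control duodenum. Its ileal level was 1.71, 36.1, 29.7 and 23.2 CPM in mutant ileum, against 12.9, 0, 14.5 and 0 CPM in control ileum. Prss3 had 0.259, 7.72, 2.004 and 9.94 CPM in mutant duodenum, against 1.402, 0.0159, 4.804 and 0 CPM in control duodenum. The ileal values were 0, 0.06997, 0.244 and 0.0536 CPM in mutant ileum, against 0.0293, 0, 0.1898 and 0 CPM in control ileum. Longest coding transcripts of Try4 and Try5 are 97.1% identical, those of Prss3 and Try4 92.5% and those of Prss2 and Try4 90.1%, so the split of reads between these genes is uncertain.

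Carboxypeptidases remove residues from the C-terminal end. Cpa1 had 937, 22981, 4936 and 23232 CPM in mutant duodenum, against 3723, 0.207, 2019 and 0 CPM in control duodenum. In the ileal libraries it had 16.02, 353, 270.2 and 208 CPM in mutant ileum, against 147, 0.0953, 103 and 0 CPM in control ileum. The groups overlapped in both tissues through mouse M136. Cpb1 had 1009.7, 22703, 4838 and 21012 CPM in mutant duodenum, against 3562, 0.508, 2452 and 0.118 CPM in control duodenum. Ileum gave 15.97, 357, 258 and 195 CPM in mutant ileum, against 146, 0.286, 135.7 and 0.166 CPM in control ileum. In duodenum Cpb1 kept the mouse order of Ctrb1, and Cpa1 differed from it only in the order of mice M167 and M177.

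Among the enzymes of fat digestion, Pnlip, pancreatic triglyceride lipase, had 1575, 34443, 6917 and 31858 CPM in mutant duodenum, against 5873, 0.191, 3802 and 0 CPM in control duodenum. In ileum Pnlip had 26.9, 538, 379 and 304 CPM in mutant ileum, against 242, 0.0572, 209 and 0 CPM in control ileum. Cel, which cleaves cholesteryl esters and other lipids in the presence of bile salt, had 904, 18345, 4673 and 17943 CPM in mutant duodenum, against 4309, 0.365, 2629 and 0 CPM in control duodenum. Ileal libraries held 16.3, 291, 247 and 162 CPM in mutant ileum, against 191, 0.229, 146 and 0 CPM in control ileum. For Cel, control mouse C133 came close to mutant mouse M168 in duodenum and lay above mutant mouse M177 in ileum. Pnliprp1, a lipase relative, had 532, 12513, 2423 and 11449 CPM in mutant duodenum, against 1417, 1.86, 988 and 1.698 CPM in control duodenum. In ileum this gene had 10.9, 184, 129.6 and 98.6 CPM in mutant ileum, against 52.3, 2.04, 51.3 and 1.58 CPM in control ileum. Pla2g1b, secreted phospholipase A2, had 17.7, 376, 81.6 and 405 CPM in mutant duodenum, against 64.2, 0.0318, 66.7 and 0 CPM in control duodenum. Its ileal level was 0.115, 5.37, 4.32 and 3.86 CPM in mutant ileum, against 2.57, 0, 3.21 and 0 CPM in control ileum. Pnlip and Pla2g1b were at or near 0 in control mice C134 and C154, in both tissues.

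Clps and Pnliprp2 were at 60.7 CPM or more in every library, control mice C134 and C154 included. Clps, colipase, the cofactor that anchors lipase to fat droplets, had 341, 7070.4, 1525 and 6927 CPM in mutant duodenum, against 1162, 64.02, 668 and 72.8 CPM in control duodenum. In ileum Clps had 78.98, 157, 158 and 129 CPM in mutant ileum, against 139, 130.3, 113 and 98.7 CPM in control ileum. Its ileal level therefore spanned only a small range over all 8 mice, while its duodenal level followed the other enzymes above a floor. Pnliprp2, a lipase that also cleaves galactolipids, had 248, 2486, 629 and 2303 CPM in mutant duodenum, against 303, 64.2, 259 and 60.7 CPM in control duodenum. The ileal values were 231, 286, 265 and 345 CPM in mutant ileum, against 259, 243, 207 and 192 CPM in control ileum. In mice C134 and C154 both genes were higher in ileum than in duodenum.

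The remaining enzymes digest starch and RNA. Amy2b, an amylase, had 1.83, 32.6, 9.16 and 27.8 CPM in mutant duodenum, against 6.17, 0, 5.37 and 0 CPM in control duodenum. In the ileal libraries it had 0, 0.6297, 0.5402 and 0.304 CPM in mutant ileum, against 0.117, 0, 0.323 and 0 CPM in control ileum. Mouse amylase genes lie in near-identical copies, and counts for any 1 of them are uncertain. Rnase1, pancreatic ribonuclease, had 372, 5978, 1601 and 6784 CPM in mutant duodenum, against 1508, 22.99, 932 and 29.00 CPM in control duodenum. Ileum gave 7.84, 76.3, 88.6 and 56.7 CPM in mutant ileum, against 65.2, 8.92, 49.5 and 7.07 CPM in control ileum. Rnase1 kept at least 7.07 CPM in the libraries that lacked Ctrb1.

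The granule proteins followed the enzymes. Sycn, syncollin of the zymogen granule membrane, had 102, 2075, 620.3 and 2123 CPM in mutant duodenum, against 426, 0.731, 255 and 1.09 CPM in control duodenum. Ileal libraries held 2.12, 19.9, 23.5 and 15.8 CPM in mutant ileum, against 11.8, 0.286, 7.12 and 0.249 CPM in control ileum. Cuzd1, a granule membrane protein, had 36.2, 883, 205 and 814 CPM in mutant duodenum, against 111, 0.0318, 70.05 and 0 CPM in control duodenum. In ileum this gene had 0.591, 16.1, 10.8 and 8.52 CPM in mutant ileum, against 5.104, 0, 4.65 and 0.0622 CPM in control ileum. Serpini2, a serine protease inhibitor of the acinar cell, had 21.4, 309.6, 86.01 and 383 CPM in mutant duodenum, against 58.6, 0, 48.6 and 0 CPM in control duodenum. Its ileal level was 0.476, 4.62, 4.18 and 3.21 CPM in mutant ileum, against 2.49, 0, 2.81 and 0 CPM in control ileum. In each of the 3, mutant mice M167, M168 and M177 stood above all control mice in both tissues.

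Among the transcription factors, Ptf1a and Rbpjl behaved like the enzymes at a much lower level. Ptf1a had 0.497, 9.32, 2.82 and 8.17 CPM in mutant duodenum, against 1.42, 0, 1.09 and 0 CPM in control duodenum. The ileal values were 0, 0.294, 0.122 and 0.125 CPM in mutant ileum, against 0.0293, 0, 0.114 and 0 CPM in control ileum. Rbpjl, its acinar partner, had 0.736, 11.9, 4.97 and 13.98 CPM in mutant duodenum, against 2.56, 0.0477, 1.45 and 0.0395 CPM in control duodenum. In the ileal libraries it had 0, 0.546, 0.261 and 0.0893 CPM in mutant ileum, against 0.278, 0.0572, 0.05695 and 0 CPM in control ileum. Ptf1a had no count in either tissue of mice C134 and C154. Bhlha15, which matures the secretory apparatus and is also made by other secretory cells, had 6.41, 41.7, 15.99 and 48.1 CPM in mutant duodenum, against 13.4, 4.75, 10.6 and 4.99 CPM in control duodenum. In ileum Bhlha15 had 6.33, 9.82, 11.9 and 8.66 CPM in mutant ileum, against 7.65, 9.76, 9.74 and 9.700 CPM in control ileum. Nr5a2, a nuclear receptor that intestinal crypts express as well, had 74.1, 88.5, 60.1 and 94.3 CPM in mutant duodenum, against 69.6, 45.6, 64.9 and 59.2 CPM in control duodenum. Ileum gave 112, 80.9, 95.98 and 97.2 CPM in mutant ileum, against 90.4, 90.1, 98.5 and 70.8 CPM in control ileum. Nr5a2 varied least of all members over the duodenal libraries, and mutant mouse M168, not M136, was the one that lay among the controls.

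Of the last 3 members, Azgp1 and Rab26 depart from this pattern. Tmed6 followed the enzymes in duodenum, above a floor, and departs in ileum only. Azgp1, zinc-alpha-2-glycoprotein, a secreted protein known for its effect on lipid breakdown in fat, had 0.637, 6.75, 1.59 and 4.93 CPM in mutant duodenum, against 0.0601, 0.0318, 0.02098 and 0.0592 CPM in control duodenum. In ileum Azgp1 had 0.739, 0.476, 0.958 and 0.607 CPM in mutant ileum, against 0, 0.0381, 0 and 0.104 CPM in control ileum. All mutant libraries were above all control libraries in both tissues, and in ileum the level of mutant mouse M136, with little Ctrb1, was above those of mice M167 and M177. Rab26, a small GTPase of secretory granules, had 0.358, 3.35, 0.939 and 3.74 CPM in mutant duodenum, against 0.2403, 0.0318, 0.105 and 0.0592 CPM in control duodenum, again without overlap. In ileum Rab26 had 0.0821, 0.154, 0.0523 and 0.161 CPM in mutant ileum, against 0.0585, 0.0762, 0.03797 and 0.0829 CPM in control ileum, and the groups overlapped. Tmed6, a member of the p24 family of cargo proteins in the early secretory pathway, had 12.4, 109, 27.7 and 104 CPM in mutant duodenum, against 18.05, 3.32, 15.8 and 3.67 CPM in control duodenum. In ileum Tmed6 had 13.7, 11.7, 13.5 and 10.6 CPM in mutant ileum, against 9.73, 9.32, 8.26 and 7.61 CPM in control ileum, with no overlap between the groups.

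Levels per kilobase of exon spanned a wide range in mutant duodenum. Ctrb1 led with a mean of 22588 CPM per kilobase in mutant duodenum, against 1975 in control duodenum. Prss2 followed with 8910.0 against 1062, Pnlip with 8518 against 1102, and Cpa1 with 7441 against 820.4 CPM per kilobase. At the other end stood Cela3a with 0.532, Rab26 with 0.735, Rbpjl with 1.38 and Azgp1 with 2.16 CPM per kilobase in mutant duodenum. Mice M167 and M177 set most of these means.

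Mutant and control duodenum were compared first, gene by gene. All 31 members passed the filter on low counts, all had a positive log2 fold change, and the median was 2.97, against 0.02 over the 17611 genes tested. Azgp1 had 572 counts in mutant and 9 in control duodenum, and Rab26 340 and 22. Both passed the filter mainly through the mutant libraries, so their being tested favours a positive change. Only Azgp1 and Rab26 passed the adjusted threshold of 0.05 with edgeR's quasi-likelihood test, 2 of 31, beside 3.44% of all tested genes called higher and 5.11% called lower. Azgp1 changed by 6.28 ± 0.93 (log2, SE) with an adjusted p of 0.00875, and Rab26 by 4.28 ± 0.90 with an adjusted p of 0.0282. The Rab26 call was lost in 11 of 17 alternatives, among them the removal of any 1 of 6 mice, with adjusted p up to 0.215, and that of Azgp1 in 3 of 17, up to 0.14. They were also the members whose 4 mutant libraries lay above all 4 control libraries, 2 of 31, beside 7.81% of all tested genes. In 28 further members, 3 of the 4 mutant libraries were above all control libraries, and in Prss3 it was 2.

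The other 29 members had log2 changes between 0.42 and 3.85 with adjusted p between 0.0934 and 0.559, and 6 members in all had an unadjusted p under 0.05. Ctrb1 had a log2 change of 3.53 ± 2.81 with an adjusted p of 0.446, and Cpa1 of 3.20 ± 2.78 with 0.487. These errors reflect the spread between mice of 1 genotype, which ran over several orders of magnitude among the controls. Pnliprp2 came nearest to the threshold among the enzymes, at 3.06 ± 0.96 with an adjusted p of 0.0934. DESeq2 called 5 members higher, beside 1387 of 17611 genes, and limma-voom 0, beside 489. Without control mice C134 and C154 no member was called and the median fell to 1.99, and without mutant mice M167 and M177 it was 1.02. With the summed reference enzymes as a covariate the median was 0.16, and Azgp1 had a log2 change of 4.38 with an adjusted p of 0.0971. All 12 reference enzymes are members themselves, so this fit draws the members' median toward 0 by design. In the duodenum of mice C134 and C154 that covariate was 93.3 and 95.9% Clps.

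Mutant and control ileum were compared in the same way. Of the 31 members 25 passed the filter on low counts, and their median log2 change was 1.67, against -0.03 over 18310 genes. Azgp1 and Tmed6 were called higher, 2 of 25, beside 19.0% of all tested genes called higher and 14.6% called lower. Azgp1 changed by 4.36 ± 0.71 with an adjusted p of 0.00103, and Tmed6 by 0.54 ± 0.13 with an adjusted p of 0.00782. These 2 also showed no overlap between mutant and control libraries, beside 16.9% of all tested genes. Leaving out control mice C134 and C154 left Azgp1 called with an adjusted p of 0.00125, with both remaining control libraries at 0, and lost Tmed6. Pnliprp2 had a log2 change of 0.36 ± 0.14 with an adjusted p of 0.0661, and Ctrb1 of 2.12 ± 2.02 with 0.461. With the reference enzymes as a covariate, Azgp1 rose by 4.92 with an adjusted p of 0.00125 and Tmed6 by 0.55 with 0.0133, while Rnase1 fell by 0.49 with 0.0348. In the ileum of mice C134 and C154 that covariate was 97.5 and 97.9% Clps.

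The difference between the genotype effects in duodenum and ileum was tested directly. None of 31 members was called by edgeR's quasi-likelihood test, beside 4.13% of 19289 genes called with a larger and 4.86% with a smaller change in duodenum. At an unadjusted p under 0.05 there were 4 members, beside 5864 of 19289 genes in either direction. DESeq2 called 2 members with a larger change in duodenum, beside 1428 genes, and limma-voom 0, beside 625. Rab26 had the lowest p, with a difference of 3.45 ± 1.13 (log2) and an adjusted p of 0.0619. With mouse as a block Rab26 was the 1 member called, at 3.32 with an adjusted p of 0.0176, beside 1937 genes called with a larger change. For Azgp1 the difference was 1.94 ± 1.48 with an adjusted p of 0.389.

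Duodenum was then compared with ileum within each genotype. In mutant mice 30 members were tested and 28 were higher in duodenum, none lower, with a median log2 difference of 5.89, against 0.01 over 17852 genes. Beside this, 18.2% of all tested genes were called higher and 12.9% lower. Sycn had the largest difference, 6.31 ± 1.26 with an adjusted p of 0.00919, and Ctrb1 had 6.19 ± 1.40 with 0.0137. The differences of Azgp1, Pnliprp2 and Tmed6 were smaller, at 2.31 ± 0.67, 2.32 ± 0.69 and 2.34 ± 0.69, with adjusted p of 0.02901, 0.0368 and 0.0399. With mouse as a block, which pairs both tissues of an animal, these 3 calls were lost, with adjusted p of 0.125, 0.0873 and 0.167. Bhlha15 at 1.59 ± 0.60 and Nr5a2 at -0.30 ± 0.15 did not pass, with adjusted p of 0.0857 and 0.167. Leaving out mutant mouse M167, M168 or M177 left 2, 6 or 1 members called, and leaving out mouse M136 left 30.

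In control mice 23 members were tested and none was called higher in duodenum by edgeR's quasi-likelihood test, beside 30.3% of 18217 genes, with a median log2 difference of 4.46, against 0.00497 over all genes. At an unadjusted p under 0.05 there was 1 higher member. DESeq2 called 5 higher, beside 5462 of 18217 genes, and limma-voom 0, beside 5542. With mouse as a block, which pairs the 2 tissues of each animal, 16 of 23 were called higher, beside 5832 of 18217 genes. Their log2 differences lay between 3.09 and 4.76, among them Ctrb1 at 4.57 with an adjusted p of 2.97e-04. Nr5a2 was lower in duodenum, at -0.56 ± 0.14 with an adjusted p of 0.00592, 1 of 23 beside 28.0% of all tested genes called lower.

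The mice kept nearly the same order in both tissues. By Ctrb1, duodenum ran M167, M177, M168, C133, C151, M136, C134, C154 and ileum ran M167, M168, M177, C133, C151, M136, C134, C154, from highest to lowest. The ratio of the duodenal to the ileal Ctrb1 level lay between 20.9 and 127 in the 6 mice other than C134 and C154. In those 2 it was 2.83 and 0.476, from 17 and 5 counts in mouse C134 and 1 and 2 counts in mouse C154.

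To see which genes leave the common ratio, each was expressed per 1000 counts of 12 reference enzymes of the same library (Ctrb1, Ctrc, Ctrl, Cela2a, Cela3b, Cpa1, Cpb1, Pnlip, Pnliprp1, Cel, Clps and Sycn), leaving out the gene itself. The departure is the mean log2 ratio in mutant duodenum minus that in control duodenum. In control mice C134 and C154, Clps made up 93.3 and 95.9% of the reference counts, so departures over all 4 control mice rest largely on Clps. They ranged from -5.06 for Nr5a2 to 4.36 for Try5, with 5 members above and 1 below all control libraries, beside 0.0397% and 1.04% of all tested genes. The 3 largest were Try5, Pnlip at 4.16 and Ctrb1 at 3.98, and the 3 smallest Nr5a2, Clps at -4.37 and Bhlha15 at -3.98. The values below therefore use the control mice C133 and C151, as descriptions with no test.

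For most members, the mean proportions of mutant and control mice were close in the 6 remaining duodenal libraries. Of 31 departures, 25 lay within 0.5 on the log2 scale, although the exocrine share itself ran from 0.909 to 18.1% of counts. A departure compares means, and some of these members still varied among mutant mice. The SD of the log2 ratio was 1.05 for Cela3a, 0.80 for Bhlha15 and 0.66 for Tmed6. Cpa1 had 129.9, 142, 139.6 and 149 in mutant duodenum, against 144 and 121 in control duodenum (C133, C151) per 1000 reference counts, a departure of 0.08. Prss2 had 83.3, 67.01, 73.7 and 72.6 in mutant duodenum, against 72.2 and 70.9 in control duodenum (C133, C151), and Cela2a 82.7, 78.2, 79.02 and 82.1 in mutant duodenum, against 78.2 and 83.1 in control duodenum (C133, C151). Ptf1a, at 0.06102, 0.0503, 0.0699 and 0.0457 in mutant duodenum, against 0.04799 and 0.0585 in control duodenum (C133, C151), and Rbpjl, at 0.0903, 0.0643, 0.123 and 0.0782 in mutant duodenum, against 0.0865 and 0.0777 in control duodenum (C133, C151), also kept their ratio to the enzymes, with departures of 0.08 and 0.08.

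A few enzymes were shifted in the same sense in all 4 mutant mice. Ctrb1 had 205, 234, 234 and 245 in mutant duodenum, against 166.9 and 169 in control duodenum (C133, C151) per 1000 reference counts, a departure of 0.45. Pnliprp1 had 69.8, 72.4, 63.97 and 68.4 in mutant duodenum, against 50.2 and 56.00 in control duodenum (C133, C151), a departure of 0.37, and Try5 had 35.3, 30.97, 27.6 and 36.5 in mutant duodenum, against 16.3 and 25.4 in control duodenum (C133, C151), a departure of 0.67. Cuzd1 and Cela3b were above as well, by 0.33 and 0.18. Cel went the other way, with 125, 109.9, 131 and 112 in mutant duodenum, against 170.2 and 164 in control duodenum (C133, C151), a departure of -0.49. Rnase1 had 45.6, 32.3, 39.7 and 37.95 in mutant duodenum, against 50.9 and 50.02 in control duodenum (C133, C151), a departure of -0.39, and Ctrl and Pnlip were lower by less, at -0.21 and -0.18. In all, 7 members lay above and 4 below both controls, beside 0.165% and 1.07% of the 17611 genes tested in duodenum. For genes outside the acinar set this ratio moves with the reference counts themselves, so these shares are no like-for-like background. Ileal departures had the same sign as the duodenal ones in 26 of 31 members, from the same mice, for example -0.65 for Cel and 0.39 for Ctrb1.

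Set against control mice C133 and C151, Azgp1 left the ratio by far more, with 0.0781, 0.0364, 0.0394 and 0.0276 in mutant duodenum, against 0.00203 and 0.00113 in control duodenum (C133, C151) per 1000 reference counts, a departure of 4.40. Rab26 had 0.0439, 0.0181, 0.0233 and 0.0209 in mutant duodenum, against 0.00811 and 0.00563 in control duodenum (C133, C151), a departure of 1.80. Over all 4 control mice the departure was 0.15 for Azgp1 and -1.52 for Rab26, so that of Rab26 changed sign, and with Clps also left out of the reference they were -1.95 and -3.62. In both genes mutant mouse M136, the one with the fewest acinar counts, had the highest ratio. The 4 control duodenal libraries together held only 9 counts of Azgp1 and 22 of Rab26, so the size of both departures is uncertain. At the low end Prss3 had 0.0317, 0.0416, 0.0497 and 0.0556 in mutant duodenum, against 0.0473 and 0.258 in control duodenum (C133, C151), a departure of -1.33 in which mouse C151 alone stood apart. Nr5a2, at 9.096, 0.478, 1.49 and 0.528 in mutant duodenum, against 2.35 and 3.48 in control duodenum (C133, C151), had a departure of -1.07, and its ratio fell where acinar counts were high. The next values inside the 0.5 mark were -0.49 for Cel and -0.45 for Bhlha15, and the next outside it 0.51 for Pnliprp2 and 0.67 for Try5. Tmed6 had a departure of 0.10.

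**Figure D3:**
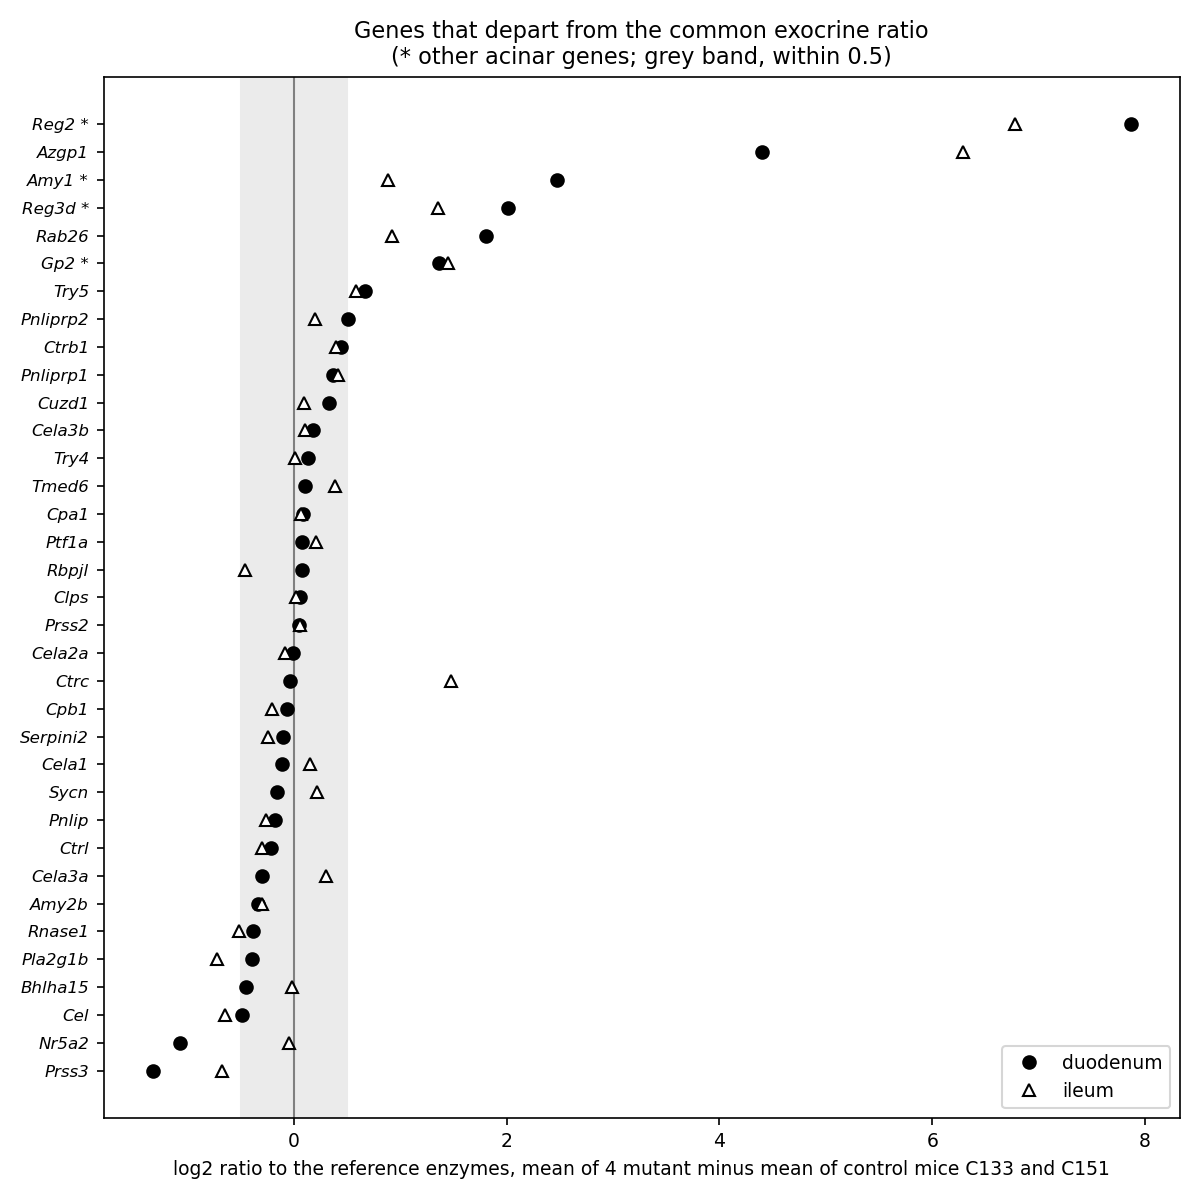
Departure of each gene from the common exocrine ratio, as the mean log2 ratio to the reference enzymes in 4 mutant mice minus that in control mice C133 and C151. Circles are duodenum and triangles ileum, the grey band marks 0.5 to either side of 0, and stars mark acinar genes outside the 31. Most genes sit in the band, Azgp1 lies at 4.40 and Rab26 at 1.80 in duodenum, and Reg2 lies beyond both.

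Other acinar genes were read in the same way from a list of 32, of which 31 matched. In duodenum 24 were tested, with a median log2 change of 2.91. Of these, 1 was called higher and none lower, beside 3.44% of all tested genes called higher and 5.11% called lower. That gene was Reg2, a secreted lectin-like protein of the regenerating family, which had 146, 2749, 779 and 3174 CPM in mutant duodenum, against 0.721, 0.0159, 4.17 and 0.0197 CPM in control duodenum. In ileum Reg2 had 2.22, 37.4, 44.96 and 26.9 CPM in mutant ileum, against 0.102, 0.0191, 0.209 and 0 CPM in control ileum. With 6894 counts in mutant and 19 in control ileum, it passed the filter there mainly through the mutant libraries. All mutant libraries lay above all control libraries in both tissues, beside 7.81% of all tested genes in duodenum and 16.9% in ileum. By edgeR's quasi-likelihood test the log2 change was 10.47 ± 2.19 in duodenum with an adjusted p of 0.0388 and 8.36 ± 1.30 in ileum with 0.00376. Per 1000 reference counts Reg2 had 17.9, 14.8, 19.3 and 17.8 in mutant duodenum, against 0.0243 and 0.224 in control duodenum (C133, C151), so that it kept a fixed ratio to the enzymes among mutant mice and was near 0 in control mice whose enzyme counts exceeded those of mutant mouse M136. With the reference enzymes as a covariate its duodenal log2 change was 7.38 with an adjusted p of 0.0119. The duodenal call was lost in 10 of 18 alternatives, with adjusted p up to 0.147, among them the removal of any 1 of 7 mice, and the ileal call in 2 of 18, up to 0.171.

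In 3 further acinar genes the ratio to the enzymes did not overlap between mutant mice and control mice C133 and C151 in duodenum. In ileum 19 of the list were tested, 3 were higher (Reg2, Reg3d and Amy1) and 1 lower (Dnase1), shares no larger than the 19.0% higher and 14.6% lower over all genes. Amy1, salivary and liver type amylase, had 1.11, 1.06, 0.808 and 1.002 in mutant duodenum, against 0.159 and 0.199 in control duodenum (C133, C151) per 1000 reference counts. Reg3d, a pancreatic relative of the Reg3 lectins, had 1.17, 0.826, 0.778 and 0.949 in mutant duodenum, against 0.181 and 0.285 in control duodenum (C133, C151). Gp2, the main glycoprotein of the zymogen granule membrane, also made by M cells, had 28.1, 26.3, 22.3 and 26.7 in mutant duodenum, against 7.904 and 12.7 in control duodenum (C133, C151). Their log2 changes in duodenum were 5.57 ± 1.49, 4.98 ± 1.35 and 4.51 ± 1.89, with adjusted p of 0.0695, 0.07197 and 0.173, so none passed there. In ileum Amy1 rose by 1.75 ± 0.60 with an adjusted p of 0.04902 and Reg3d by 2.09 ± 0.64 with 0.0302. Both ileal calls were lost under most alternatives, 13 of 17 for Amy1 and 12 of 17 for Reg3d.

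**Figure D4:**
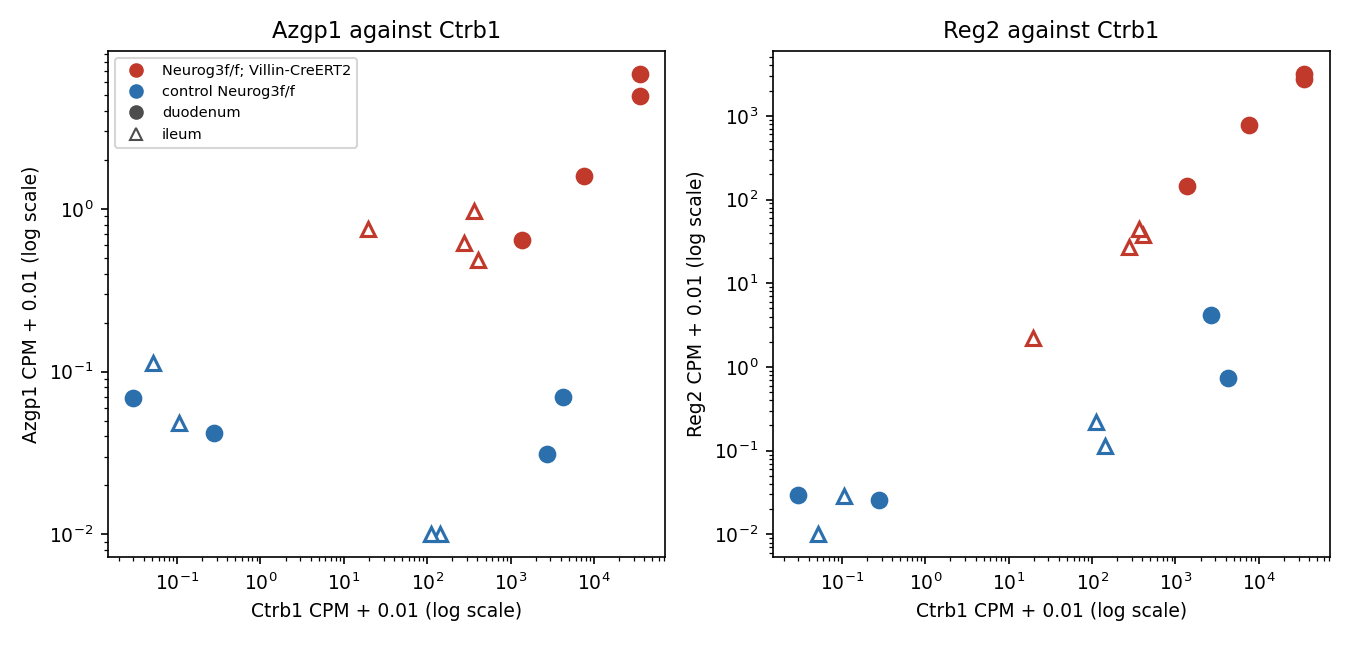
Level of Azgp1 (left) and Reg2 (right) against that of Ctrb1, all as CPM + 0.01 on log axes, 1 point per library. Mutant libraries are red, control libraries blue, circles duodenum and triangles ileum. Reg2 climbs with Ctrb1 along 1 line in mutant libraries and lies far below that line in control libraries, while Azgp1 in mutant ileum lies between 0.476 and 0.958 CPM over the whole range of Ctrb1.

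Markers of other cell types moved with the exocrine counts in part. Tff2, a trefoil peptide of stomach, Brunner's glands and pancreas, had 13.3, 234, 60.2 and 262 CPM in mutant duodenum, against 50.9, 0.0635, 50.1 and 0.0592 CPM in control duodenum. Ins2, insulin, had 0.159, 4.53, 8.39 and 17.4 CPM in mutant duodenum, against 4.79, 0, 2.08 and 0 CPM in control duodenum. Both were at or near 0 in control mice C134 and C154, as the acinar enzymes were. Of the same lists, Ins1, Ppy and G6pc2 were at 0 CPM in these duodenal libraries too. Others were not: Iapp had 1.21 and 1.07 CPM there and Pgc 1.94 and 4.15 CPM. Ucn3 had 0.0199, 0.0472, 0.104 and 0.0554 CPM in mutant duodenum, against 1.36, 1.29, 1.78 and 0.691 CPM in control duodenum. The 8 matched markers of stomach and Brunner's glands, of 10 listed, summed to 17.6, 241, 64.4 and 271 CPM in mutant duodenum, against 57.04, 3.08, 56.8 and 4.54 CPM in control duodenum. Outside mice C134 and C154, most of this sum was Tff2. Gkn1, Gkn2 and Muc5ac were at 0.526 CPM or less in every duodenal library. The 10 islet markers summed to between 1252 and 2176 CPM in mutant and between 1623 and 2398 CPM in control duodenum, nearly all of it Slc2a2, which enterocytes make. By edgeR's quasi-likelihood test, genes called higher and lower between mutant and control duodenum numbered 0 and 1 of 7 tested islet markers, 0 and 0 of 8 duct markers, 0 and 0 of 4 stomach and Brunner's gland markers and 0 and 1 of 3 liver markers. The part of these markers in the results was not tested.

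Other lists moved otherwise. The 7 matched markers of lymphoid follicles, of 8 listed, summed to 2.96, 4.98, 15.05 and 2.41 CPM in mutant duodenum, against 1.56, 38.6, 1.97 and 69.1 CPM in control duodenum, highest in the 2 control mice without acinar enzymes. In ileum they summed to 1.94, 4.42, 3.03 and 3.21 CPM in mutant ileum, against 3.93, 133.4, 6.15 and 153 CPM in control ileum. Cr2, complement receptor of follicular dendritic and B cells, had 0.0597, 0.0944, 1.77 and 0 CPM in mutant duodenum, against 0.0801, 6.88, 0.0629 and 13.1 CPM in control duodenum. Adipoq, adiponectin of fat cells, had 0, 0, 0.0626 and 0.0277 CPM in mutant duodenum, against 0, 2.38, 0 and 0 CPM in control duodenum, and in ileum 1.199, 7.25, 10.1 and 4.18 CPM in mutant ileum, against 4.14, 6.499, 6.34 and 6.197 CPM in control ileum. The 8 fat cell markers summed to between 81.8 and 149 CPM in mutant and between 117 and 177.1 CPM in control duodenum. Duodenal epithelial markers were lowest in mutant mice M167 and M177, at 8455 and 7307 CPM, where the exocrine share was highest. Of the genes tested between mutant and control duodenum, 0 of 2 follicle markers, 0 of 3 fat cell markers, 0 of 6 duodenal and 0 of 3 ileal epithelial markers and 0 of 10 genes of secretory stress were called in either direction. Between mutant and control ileum, where 19.0% of all tested genes were higher and 14.6% lower, the calls were 5 lower of 7 follicle markers, 2 higher and 1 lower of 8 fat cell markers, 4 higher of 7 duct markers, 1 lower of 6 duodenal and 2 lower of 5 ileal epithelial markers, and 4 higher of 10 secretory stress genes. The part of these differences in the exocrine values was not tested.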

How the data were processed

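The authors' deposited values are raw counts per gene for 16 libraries, used as they stand. Per the submitters' processing notes, cutadapt 1.10, Bowtie2 2.2.8, STAR 2.5.3a, HTSeq 0.6.1p1 and the mm39 assembly were used. The sources used here do not give the strand setting, the annotation release or the treatment of reads that match several genes. GENCODE M21 named 52083 of 55359 identifiers, and the 3276 unnamed ones held 1.02% of counts. Promoters came from RefSeq (GRCm38.p6).

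Genotype was tested within each tissue, and tissue within each genotype, with edgeR 4.0.16 (limma 3.58.1, R 4.3.3): filterByExpr, trimmed mean of M values, robust quasi-likelihood F test, Benjamini-Hochberg adjustment over all tested genes, threshold 0.05. Errors are the log2 change over the root of F. The genotype by tissue term used all 16 libraries. The ratio used a pseudocount of 0.5 counts. DESeq2 1.42.0, limma-voom, other filters, scalings and left-out mice were alternatives. The fits were checked on simulated counts drawn with 1 spread for all genes. That check does not cover the many members whose spread between mice is far wider. Libraries are separate mice. Same-numbered libraries of both tissues are taken as 1 mouse: residuals correlated at 0.182 to 0.393, and best with their own number in 7 of 8 mice.

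Members, marker lists and tests were chosen with earlier results of these data known. Library values are given for members called in any comparison and others named in advance, and for other acinar genes called in duodenum. Further genes were named after their values were seen.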

Additional observations from a re-analysis of the deposited data

Results flagged for a closer look

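Each group of 4 libraries was searched for a library far from the other 3 (Dixon's gap ratio above its critical value). The search covered 124 pairs of a member and a group and the share of counts in each group. It found 3. Most members moved together over the same mice, so the pairs are not independent and this number has no chance rate to be set against. A group split evenly into high and low libraries, as the controls were for most enzymes, cannot be flagged by this ratio. Prss3 was 0.190 CPM in the ileum of control mouse C151, and the nearest other control library had 0.0293 CPM. Bhlha15 was 7.65 CPM in the ileum of control mouse C133, and the nearest other control library had 9.70 CPM. Cela3a was 0.0140 CPM in the ileum of mutant mouse M167, from 1 count, and 0 in the other 3 mutant libraries, which any lone count would give.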

How the results depend on the processing

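Members called higher between mutant and control duodenum were 2 in the report, 1 without a filter on low counts and 0 with a filter of 1 CPM in 4 libraries. The count was 5 with DESeq2's Wald test and 0 with limma-voom, 5 with all 16 libraries in 1 fit, 0 with the reference enzymes as a covariate, 0 without C134 and C154 (controls), 1 with mutants M167 and M177 left out, and 1 to 3 with single mice left out. Over all genes in duodenum, 1506 were called in the report, 2972 with DESeq2, 200 without mice C134 and C154, 445 without mice M167 and M177, 221 with the covariate, 2491 with all 16 libraries and 476 to 2139 with single mice left out. In ileum, 4 members were called higher without a filter, 1 with the 1 CPM filter, 1 without mice C134 and C154, 1 with all 16 libraries and 2 to 3 with single mice left out. The covariate added 1 member called lower there, and 4067 genes in all were called without mice C134 and C154, against 6146. For the genotype by tissue term, 2 members and 3199 genes were called with DESeq2, 1 member and 4027 genes with mouse as a block (replicate block), and 0 members and 184 to 2009 genes with single mice left out, against 0 and 1734. Between duodenum and ileum, 1 to 30 members were called higher in mutant mice with single mice left out, and in control mice 5 with DESeq2 and 16 with the mouse block. In mutant mice the block called 25 of 30 higher, beside 3893 of 17852 genes. Tmed6 in control mice, not called in any fit, changed sign to -0.25 with limma-voom, -0.13 with the block, -0.18 to 0.50 with single mice left out. Members whose ratio lay above all controls numbered 5 in the report, 3 with Clps left out of the reference, an alternative chosen after seeing the data, and 5 to 7 with single mice left out. Those below numbered 1, 4 without mice C134 and C154, and 1 to 4 with single mice left out. The duodenal share averaged 7.68 to 13.4% in mutant and 0.707 to 1.72% in control mice with single mice left out. Which cause lies behind these changes was not tested. The depth left few counts for Azgp1, Rab26, Ptf1a and Rbpjl in ileum, and for Azgp1 and Rab26 in control duodenum as well. Levels of single trypsinogen, elastase 3 and amylase genes depend on how reads of near-identical copies were assigned.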

Other observations

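A group of trypsinogen-like genes stood apart in 1 control mouse. Per 1000 reference counts, Prss3 had 0.0317, 0.0416, 0.0497 and 0.0556 in mutant duodenum, against 0.0473 and 0.258 in control duodenum (C133, C151). Gm5771 lay between 0.00414 and 0.0146 in mutant duodenum, against 0.294 in control mouse C151 and 0.0277 in control mouse C133. Prss1 lay between 5.18e-04 and 0.00244 in mutant duodenum, against 0.0912 in control mouse C151 and 0.00406 in control mouse C133. In mouse C151 the ileal library was also the highest for all 3 genes among the control libraries, with 0.186, 0.204 and 0.0372 per 1000 reference counts for Prss3, Gm5771 and Prss1. These genes have close relatives, and the split of reads among them is uncertain.

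Dnase1, a secreted nuclease of the acinar list that the intestine also makes, ran against the enzymes. It had 14.6, 3.704, 9.89 and 1.61 CPM in mutant duodenum, against 41.3, 155, 30.7 and 67.1 CPM in control duodenum. The ileal values were 4.07, 0.854, 5.98 and 3.32 CPM in mutant ileum, against 32.8, 91.04, 21.5 and 27.2 CPM in control ileum. The log2 change was -3.28 ± 0.87 in duodenum with an adjusted p of 0.0674, and -3.59 ± 0.75 in ileum with an adjusted p of 0.0118 by edgeR's quasi-likelihood test. All mutant libraries lay below all control libraries in both tissues. The same held for 1901 of 17611 tested genes in duodenum and 2925 of 18310 in ileum. The adjusted p of Dnase1 in ileum ran up to 0.0607 under the alternatives. Amy2a5, an amylase copy, had 0.0171, 0.03196, 0.0735 and 0.0359 in mutant duodenum, against 0.156 and 0.127 in control duodenum (C133, C151) per 1000 reference counts, lower in all mutant mice, while Amy1 was higher.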
